A study of Homo sapiens with 6 samples.

Results

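The unfolded protein response and ATF4 genes described here are 34 named genes, all of which have a row in the deposited count table of 61228 gene names. They were taken by name from a fixed list, which was chosen with earlier results of these data known. Of these, 16 are genes for chaperones, folding enzymes and degradation factors of the endoplasmic reticulum (ER). The other 18 form the ATF4 branch, which covers stress transcription factors, serine and one-carbon enzymes and amino acid transporters. RNA was sequenced from MDA-MB-231, a human triple-negative breast cancer line, after growth in 3-dimensional gels of collagen I, a fibre-forming matrix protein. The series has 3 knockout (KO) libraries and 3 control libraries. KO cells were nucleofected, that is loaded by electrical pulses, with the nuclease Cas9 and guide RNAs, and the treatment label lists ETV1, ETV4 and ETV5 as the genes knocked out, though the titles name ETV4 alone. Control cells received Cas9 with control guides, so both groups went through nucleofection, Cas9 and collagen culture. KO library names carry c39, a term with no explanation in the labels, and it is not stated whether these cells are a single clone. Which of the collagen concentrations in the protocol, 1.2 or 2.4 mg/ml, was used for which library is not stated either. The labels do not say whether replicates are separate cultures, so p-values reflect the variation among these 6 libraries alone, which may be technical.

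The ER folds secreted and membrane proteins. When unfolded proteins build up there, the membrane sensors IRE1, PERK and ATF6 switch on the unfolded protein response: IRE1 splices XBP1 mRNA and ATF6 is cut to release a transcription factor, and both raise chaperone and degradation genes. PERK phosphorylates the translation factor eIF2, which slows most protein synthesis but favours translation of ATF4. The kinase GCN2 does the same when amino acids run short, and ATF4 then raises genes for amino acid synthesis, amino acid uptake and, together with DDIT3 (CHOP), for stress-induced death. Splicing of XBP1 and translation of ATF4 are not seen in counts per gene.

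Library totals ran from 18042601 to 19250921 counts in KO and from 18806653 to 23232770 counts in control, and mitochondrially encoded transcripts took 2.65% to 3.82% of counts in KO and 3.15% to 4.26% in control. Of the genes in the treatment label, ETV1 averaged 142 CPM in KO and 223 CPM in control (log2 fold change -0.65, SE 0.08, edgeR adjusted p = 0.00125). ETV4 averaged 63.7 CPM in KO and 93.9 CPM in control (log2 fold change -0.56, SE 0.06, edgeR adjusted p = 6.12e-04). ETV5 averaged 113 CPM in KO and 112 CPM in control (log2 fold change 0.01, SE 0.06, edgeR adjusted p = 0.932). Counts per gene do not show whether an edited gene still makes working protein, so they cannot check the knockout itself. CPM are counts scaled to a common library size, with TMM scaling between libraries. Vimentin, CD44, AXL, CAV1 and MSN, markers of the mesenchymal type of this line, summed to between 7736 and 9204 CPM in KO and between 8942 and 10830 CPM in control. They did not move together. CD44 and CAV1 were higher in every KO library than in every control library, and MSN was lower. The groups overlapped for AXL and for vimentin, the largest part of the sum. The luminal markers ESR1 and PGR had at most 1 count in any library. Of other cell types, the defining genes PTPRC, CD3E, DCN and CDH5 had at most 11 counts in any library. Leukocyte markers nevertheless summed to between 2.67 and 3.05 CPM in KO and between 6.64 and 7.98 CPM in control, mostly LYZ, which fell (log2 fold change -1.96), and endothelial markers to between 5.93 and 8.47 CPM in KO and between 9.86 and 10.9 CPM in control, with PECAM1 lower (-0.85). Fibroblast markers summed to between 11.95 and 13.98 CPM in KO and between 13.2 and 13.6 CPM in control. Luminal markers summed to between 542 and 579 CPM in KO and between 479.7 and 502 CPM in control. Most of the luminal sum was KRT8, with 524.8, 541.3 and 509.6 CPM in KO and 471.4, 447.8 and 450.7 CPM in control. The part of these markers in the results was not tested. Replicate 3 of both groups stood apart from replicates 1 and 2, and results are given with and without both of these libraries where a call changes. A bulk library cannot tell fewer cells expressing a gene from less RNA per cell.

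Most of these genes were measured at similar levels in KO and control, and those that changed did so by small amounts. All 34 passed the filter on low counts, so none was left out. In the group comparison, edgeR's quasi-likelihood test adjusted over all 14704 genes tested, 2 of the 34 rose (5.88%) and 4 fell (11.8%), against 3.28% of all genes tested that rose and 6.42% that fell. The genes that rose were DDIT3 and SLC7A5, and those that fell were HERPUD1, EDEM1, CHAC1 and PHGDH. All 6 also passed without replicate 3 of both groups, with an edgeR adjusted p of at most 0.0111. In that comparison of 2 libraries a group, 2 ER genes and 5 ATF4-branch genes were higher in KO and 3 and 4 were lower, against 11.7% of all genes that were higher and 13.7% that were lower. With only KO replicate 1 left out, 0 of the 34 passed, against 183 of all 15104 genes higher and 503 lower. With only control replicate 2 left out, 0 of the 34 passed as well, against 136 of all 15068 genes higher and 436 lower. The median log2 fold change was 0.03 over the 34 genes and 0.00 over all genes tested. No member reached a 2-fold change: the largest fitted difference was for ASNS, 1.65-fold lower in KO.

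Same-numbered libraries correlated above the minimum given under the processing, and a fit with replicate as a block was made as well. That rule cannot show that the numbers pair the libraries. Calls with the block therefore depend on a pairing taken from these data and not from the design. With this replicate block, 13 of the 34 were higher in KO (38.2%) and 8 lower (23.5%), against 17.2% and 16.7% of all genes tested. Without any fit, 9 of the 34 genes had all KO libraries above all control libraries and 9 had all KO libraries below, against 14.9% and 16.8% of all genes tested.

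**Figure D1:**
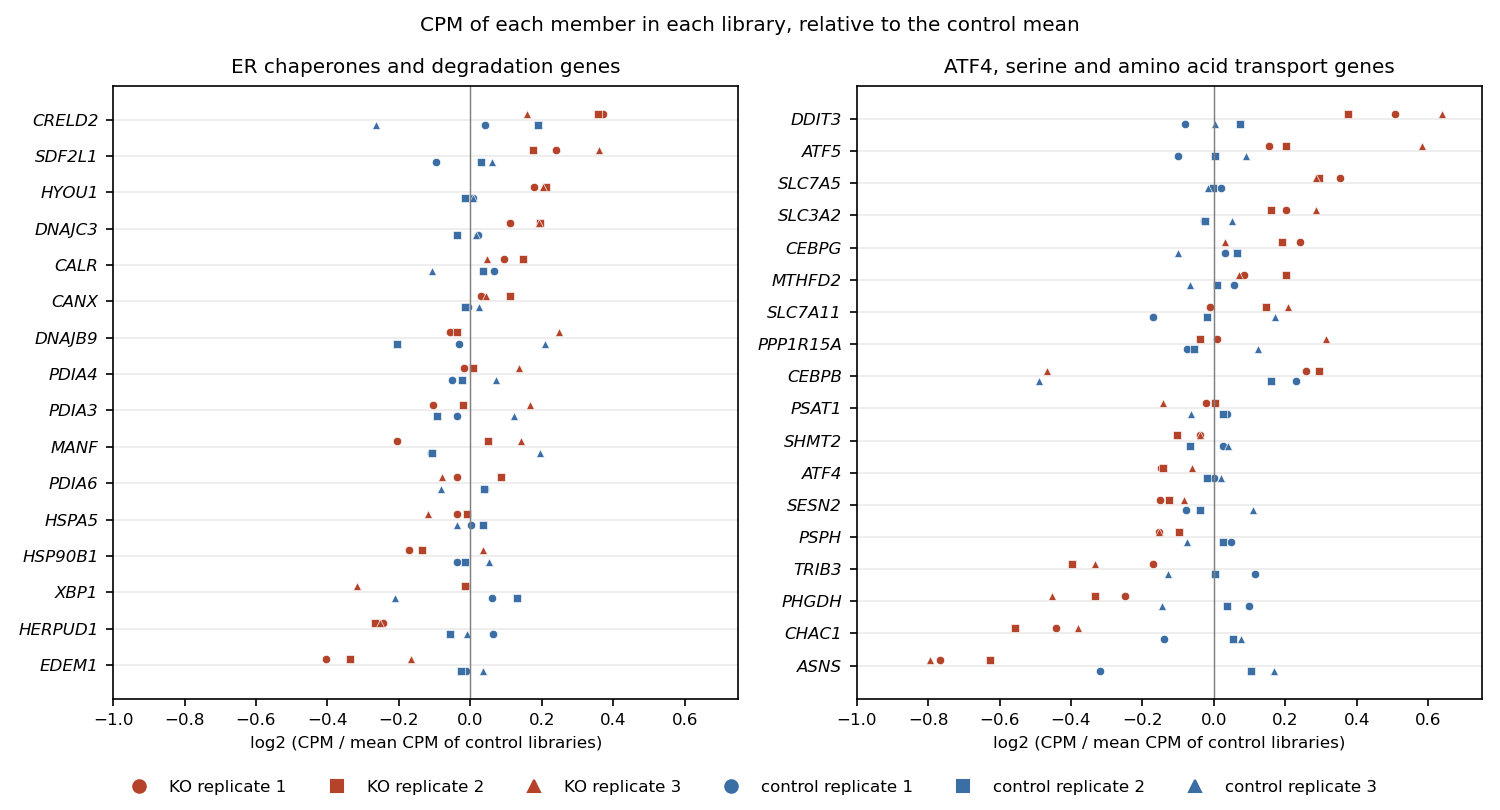
Each point is a library: the horizontal axis gives its CPM of a gene relative to the mean of the 3 control libraries on the log2 scale, with KO in red above control in blue and replicates by shape. DDIT3, SLC7A5, SLC3A2 and HYOU1 lie right of every control library, HERPUD1, EDEM1, CHAC1 and PHGDH lie left of every control library, and CEBPB splits replicate 3 from replicates 1 and 2 in both groups.

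Among the ER genes, HERPUD1 and EDEM1 fell in the group comparison, and 10 of the 16 log2 fold changes were above zero. HERPUD1, a stress-induced membrane protein that organises the degradation complex of the ER (ENSG00000051108, GRCh38 chromosome 16, 56932048 to 56944863, plus strand), had 69.9, 68.8 and 69.5 CPM in KO replicates 1 to 3, against 86.4, 79.6 and 82.3 CPM in control replicates 1 to 3. The KO values lay close together, below all control values. The log2 fold change was -0.26 with an SE of 0.06, or 1.19-fold lower, at an edgeR adjusted p of 0.0268. EDEM1, which directs misfolded glycoproteins to degradation by recognising or trimming their mannose chains (ENSG00000134109, chromosome 3, 5187646 to 5219957, plus strand), had 85.0, 89.1 and 100.3 CPM in KO and 112, 111 and 115 CPM in control. All KO libraries were again below all controls, with replicate 3 the nearest to them. EDEM1 was thus 1.23-fold lower, a log2 fold change of -0.30 with an SE of 0.07 and an edgeR adjusted p of 0.0325.

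Both calls were close to the threshold. With 1 library left out, HERPUD1 passed only without control replicate 3 (edgeR adjusted p = 0.0485) and reached 0.133 without control replicate 1. EDEM1 passed only without KO replicate 3 (edgeR adjusted p = 0.00845) and reached 0.127 without KO replicate 1. Both passed with the replicate block (edgeR adjusted p = 1.85e-05 for HERPUD1 and 1.61e-07 for EDEM1).

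The abundant lumenal chaperones and folding enzymes did not pass the group comparison. HSPA5 (BiP), the ER member of the HSP70 family and the chaperone that holds the stress sensors inactive (ENSG00000044574, chromosome 9, 125234853 to 125241330, minus strand), had 900.2, 917 and 852 CPM in KO and 925, 947 and 899.5 CPM in control. The groups overlapped. The log2 fold change was -0.05 (95% interval -0.19 to 0.09, edgeR adjusted p = 0.644). HSP90B1 (GRP94), the ER member of the HSP90 family, had 848, 870.3 and 979 CPM in KO and 931, 945 and 991 CPM in control. Its log2 fold change was -0.09 (SE 0.07, edgeR adjusted p = 0.512), and it fell only in the fit with the replicate block (edgeR adjusted p = 0.0291) and without both replicate-3 libraries (edgeR adjusted p = 0.0179).

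CALR and CANX, the lectin chaperones calreticulin and calnexin that bind sugar chains of newly made glycoproteins, were the other abundant members. CALR averaged 1622 ± 56.8 CPM in KO and 1517 ± 96.8 CPM in control (SD, n = 3 each), with overlapping groups; it did not pass the group comparison (edgeR adjusted p = 0.443) and rose with the replicate block (edgeR adjusted p = 0.0155). CANX averaged 1225 ± 37.6 CPM in KO and 1174 ± 17.5 CPM in control and passed neither fit. The protein disulphide isomerases PDIA3, PDIA4 and PDIA6, which form and shuffle disulphide bonds, had log2 fold changes of 0.02, 0.04 and -0.01, with 95% intervals inside -0.18 to 0.22, and passed neither fit. The co-chaperone DNAJB9 (log2 fold change 0.05), the secreted stress protein MANF (0.00) and the transcription factor XBP1 (-0.11) did not pass either. XBP1 had 70.1, 70.0 and 56.7 CPM in KO and 73.7, 77.4 and 61.1 CPM in control, so that replicate 3 was the lowest library of each group.

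A smaller set of ER genes did not pass the group comparison and was higher in KO with the replicate block. HYOU1 (ENSG00000149428, chromosome 11, 119044189 to 119057202, minus strand), a large HSP70 relative that exchanges nucleotides on BiP, had 313, 320.0 and 318 CPM in KO and 278, 274 and 278 CPM in control. The groups were well apart and the libraries within each close together. Its log2 fold change was 0.20 (SE 0.05), with an edgeR adjusted p of 0.0551 in the group comparison and 3.79e-06 with the replicate block. It passed the group comparison when DESeq2 size factors (edgeR adjusted p = 0.0494) or DESeq2 itself (DESeq2 adjusted p = 0.0135) were used, and without both replicate-3 libraries (edgeR adjusted p = 5.82e-04). DNAJC3, a J-domain co-chaperone of BiP that also restrains PERK, had 115, 122 and 122 CPM in KO and 108, 104 and 108 CPM in control. Its adjusted p was 0.101 in the edgeR group comparison, 0.00117 with the replicate block and 0.0196 without both replicate-3 libraries. SDF2L1, a partner of the BiP cycle, had 19.9, 19.0 and 21.6 CPM in KO and 15.7, 17.2 and 17.6 CPM in control (edgeR adjusted p = 0.11; with the replicate block, 0.0111). CRELD2, a secreted ER stress protein, had 16.4, 16.3 and 14.2 CPM in KO and 13.1, 14.5 and 10.6 CPM in control (edgeR adjusted p = 0.186; with the replicate block, 0.00943). KO and control did not overlap for DNAJC3 and SDF2L1 and did overlap for CRELD2.

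Over the 16 ER genes, 0 rose and 2 fell in the group comparison, and 5 rose and 3 fell with the replicate block. Of all genes tested, 3.28% rose and 6.42% fell in the group comparison, and 17.2% rose and 16.7% fell with the block. The median log2 fold change of the 16 genes was 0.03. At an edgeR p below 0.05 without adjustment 4 ER genes were higher and 2 were lower. In the ATF4 branch 4 were higher and 4 were lower at this p. The exact share of all genes was not counted. CRELD2, with an edgeR p of 0.0454 before adjustment, ranked 3582 of the 14704 genes tested, so at least 3582 genes passed this p in either direction. DESeq2 called 1 ER gene higher, HYOU1, and 2 lower, HERPUD1 and EDEM1. It called 593 of all 14704 genes tested higher and 966 lower. The summed CPM of the 16 genes was between 6085 and 6326 in KO and between 6079 and 6156 in control, so the groups overlapped.

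**Figure D2:**
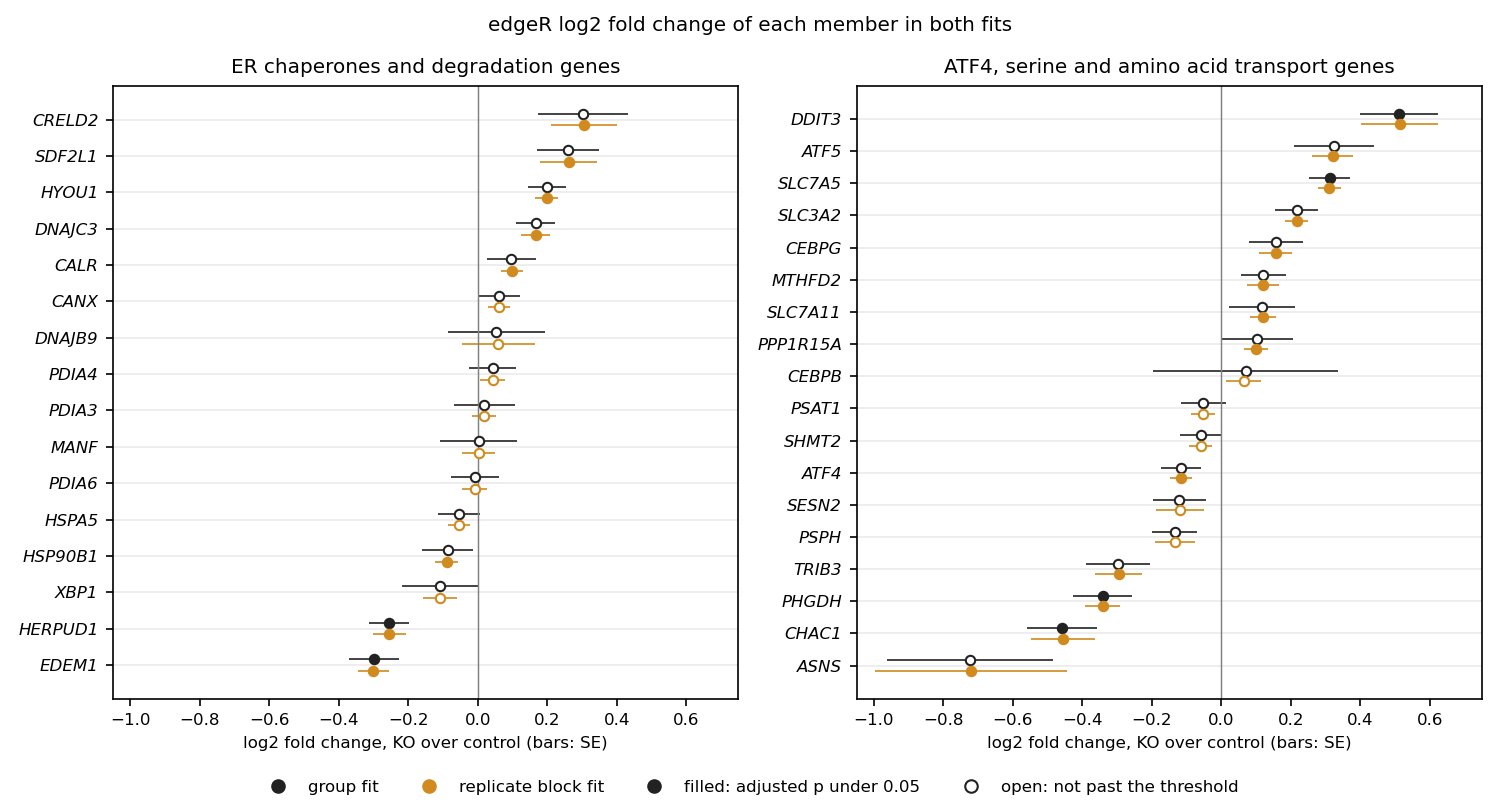
Points give the edgeR log2 fold change of each gene, KO over control, with its SE, from the group fit in black and from the fit with the replicate block in orange; filled points have an adjusted p under 0.05. In the group fit 6 points are filled, and with the block 21 are, 13 to the right of zero and 8 to the left.

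Known stress elements were found in the promoters of some ER genes and not of others, and EDEM1, which fell, had none of those searched. RefSeq promoter windows on GRCh38.p14, 250 bases before to 50 bases after each annotated start, were found for 30 of the 34 members; PDIA3, PSPH, SHMT2 and SLC7A11 had no entry. The ER stress element, CCAAT and CCACG with 9 bases between, is known as a site for ATF6 with NF-Y, and was defined in part on promoters of HSPA5, HSP90B1 and CALR. It was found, on either strand, in 7 of the 15 ER genes with a window (46.7%), namely HSPA5, HSP90B1, XBP1, PDIA6, CALR, CANX and CRELD2. It was in 0 of 15 ATF4-branch genes and in 25 of all 27305 genes with a window (0.0916%), these 7 included. The shorter element II, ATTGG and CCACG with 1 base between, first described on HERPUD1, was in HERPUD1, HYOU1 and SDF2L1 and in 0.0696% of all genes. The core of the XBP1 and ATF6 site TGACGTGG was in HYOU1, where it overlaps an element II, and in 0.927% of all genes. DNAJB9, DNAJC3, MANF and PDIA4 also had none of them. Of the members with element II, HERPUD1 fell, and HYOU1 and SDF2L1 did not pass the group comparison. None of the 7 members with an ER stress element passed it. Whether members with the same element differed from each other was not tested. A match of letters is a description and does not show that a factor bound.

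The 250 bases before the start are shown for HERPUD1, which fell, for HYOU1, which was higher in every KO library, and for HSPA5, whose groups overlapped. They are printed 5′ to 3′ in the direction of the gene, with the fixed letters of the motifs in capitals, on GRCh38.p14: HERPUD1 at chr16:56931892-56932141 (plus strand), HYOU1 at chr11:119057206-119057455 (minus strand) and HSPA5 at chr9:125241344-125241593 (minus strand).
HERPUD1: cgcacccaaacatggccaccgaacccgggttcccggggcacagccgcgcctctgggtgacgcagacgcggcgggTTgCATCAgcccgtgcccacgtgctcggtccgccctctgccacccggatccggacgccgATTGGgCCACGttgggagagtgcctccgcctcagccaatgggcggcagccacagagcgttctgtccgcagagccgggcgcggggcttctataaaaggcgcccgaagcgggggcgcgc
HYOU1: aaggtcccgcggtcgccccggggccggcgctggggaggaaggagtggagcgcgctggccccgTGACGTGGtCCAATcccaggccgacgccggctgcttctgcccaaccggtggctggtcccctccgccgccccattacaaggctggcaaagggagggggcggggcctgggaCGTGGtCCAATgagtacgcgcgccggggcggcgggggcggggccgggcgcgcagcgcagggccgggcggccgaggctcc
HSPA5: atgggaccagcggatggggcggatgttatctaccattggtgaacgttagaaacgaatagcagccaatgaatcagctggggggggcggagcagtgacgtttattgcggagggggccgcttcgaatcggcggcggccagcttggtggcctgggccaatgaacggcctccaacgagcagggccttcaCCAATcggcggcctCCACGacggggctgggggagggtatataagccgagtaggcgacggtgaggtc
In HERPUD1 the capitals are, from the left, a C/EBP-ATF element read on the opposite strand and an element II. In HYOU1 they are the core site with an overlapping element II and a further element II, where both elements II are read on the opposite strand and the core on the printed one. In HSPA5 they are a single ER stress element that begins 66 bases before the start.

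**Figure D3:**
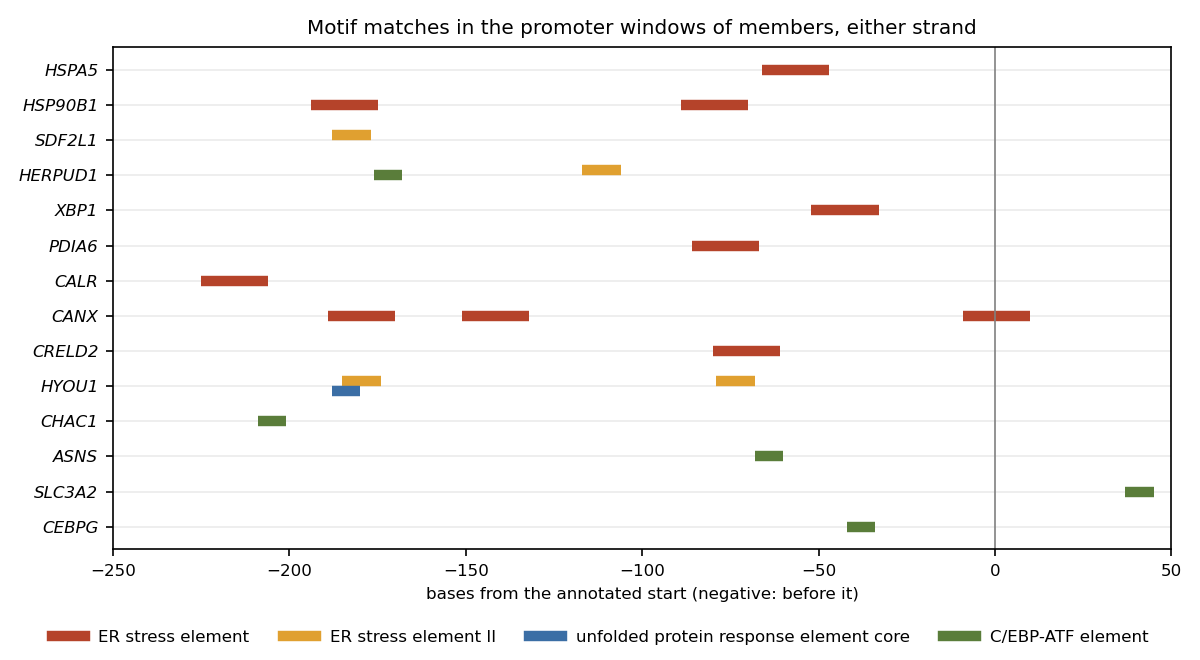
Bars mark the matches to the 4 motifs in the promoter windows of the 14 members that hold at least 1, by distance in bases from the annotated start, with ER genes above and ATF4-branch genes below. Red bars (ER stress element) are confined to ER genes in these windows, and the single CANX site appears at 3 distances because CANX has several annotated starts.

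In the ATF4 branch, DDIT3 was the transcription factor that rose, and the others did not pass the group comparison. DDIT3 (CHOP), a factor of prolonged stress that favours cell death (ENSG00000175197, chromosome 12, 57516588 to 57521737, minus strand), had 12.0, 11.0 and 13.2 CPM in KO and 7.99, 8.89 and 8.46 CPM in control. All KO libraries were above all controls. It was 1.43-fold higher (log2 fold change 0.51, SE 0.11, edgeR adjusted p = 0.0230). With 1 library left out it did not pass without KO replicate 1 (edgeR adjusted p = 0.0712), control replicate 1 (0.101) or control replicate 2 (0.0725), and passed without the others. Of its 1307 exonic bases, 355 overlap exons of the methionyl-tRNA synthetase gene MARS1 on the opposite strand, and 105 overlap a protein-coding gene on the same strand. MARS1 averaged 216 CPM in KO and 199.8 CPM in control; whether reads of the overlap were counted for DDIT3 depends on a strand setting that is not given in the sources used here, and its part in the difference was not tested.

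ATF4 itself had 383, 385 and 407 CPM in KO and 425, 419 and 430.1 CPM in control. Every KO library was below every control library, by a small margin. The log2 fold change was -0.12 (SE 0.06, edgeR adjusted p = 0.252), and it fell with the replicate block (edgeR adjusted p = 0.00333) and without both replicate-3 libraries (edgeR adjusted p = 0.0101). ATF5, a related factor that is likewise translated when eIF2 is phosphorylated, had 44.6, 46.1 and 60.0 CPM in KO and 37.4, 40.2 and 42.7 CPM in control. The groups did not overlap, and replicate 3 was the highest library of each. Its adjusted p was 0.120 in the edgeR group comparison, 2.22e-05 with the replicate block (log2 fold change 0.32 in both), 0.0173 without both replicate-3 libraries and 0.0048 without a filter on low counts. CEBPG, a dimer partner of ATF4, averaged 72.4 ± 5.44 CPM in KO and 65.0 ± 3.84 CPM in control and did not pass the group comparison (edgeR adjusted p = 0.242; with the replicate block, 0.00964; without both replicate-3 libraries, 0.0319). CEBPB, a further partner, had 79.4, 81.4 and 48.1 CPM in KO and 77.8, 74.1 and 47.3 CPM in control and passed neither fit.

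Among the feedback and effector genes of ATF4 and CHOP, CHAC1 fell and the others did not pass the group comparison. CHAC1, an enzyme that breaks down glutathione (ENSG00000128965, chromosome 15, 40952962 to 40956519, plus strand), had 12.6, 11.7 and 13.2 CPM in KO and 15.6, 17.8 and 18.1 CPM in control. The groups did not overlap. CHAC1 was thus 1.37-fold lower, a log2 fold change of -0.46 with an SE of 0.10 and an edgeR adjusted p of 0.0235. With 1 library left out it passed without KO replicate 3 (edgeR adjusted p = 0.0261) or control replicate 1 (0.0418) and not without KO replicate 1 (0.0846), KO replicate 2 (0.0981), control replicate 2 (0.103) or control replicate 3 (0.0562). TRIB3, a pseudokinase that restrains ATF4 and AKT, had 28.0, 23.9 and 25 CPM in KO and 34.2, 31.6 and 28.9 CPM in control. KO replicate 1 came close to control replicate 3 without overlap, and the adjusted p was 0.0816 in the edgeR group comparison, 5.18e-04 with the replicate block, 0.00401 without both replicate-3 libraries and 0.0282 without a filter on low counts. SESN2, a leucine sensor that restrains the growth kinase complex mTORC1, averaged 27.3 ± 0.652 CPM in KO and 29.6 ± 2.07 CPM in control and passed neither fit. PPP1R15A (GADD34), the phosphatase subunit that reverses eIF2 phosphorylation, rose with the replicate block only (log2 fold change 0.10, edgeR adjusted p = 0.586; with the replicate block, 0.0210). It had 311, 301 and 384 CPM in KO and 293, 297 and 336 CPM in control, with replicate 3 the highest library of each group. DDIT3 and CHAC1, both known as targets of ATF4, therefore differed in direction.

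Of the 3 enzymes that make serine from a glycolytic intermediate, the first fell and the others did not pass. PHGDH, phosphoglycerate dehydrogenase (ENSG00000092621, chromosome 1, 119648411 to 119744226, plus strand), had 59.6, 56.2 and 51.7 CPM in KO and 75.7, 72.6 and 64.0 CPM in control. The groups did not overlap, and replicate 3 was the lowest library of each. PHGDH was thus 1.27-fold lower, a log2 fold change of -0.34 with an SE of 0.08 and an edgeR adjusted p of 0.0361. With 1 library left out it passed only without control replicate 3 (edgeR adjusted p = 0.0151) and reached 0.147 without control replicate 1; with the replicate block its edgeR adjusted p was 2.00e-07. PSAT1, the transaminase of the next step, averaged 210.3 ± 11.2 CPM in KO and 218 ± 8.32 CPM in control (log2 fold change -0.05, 95% interval -0.20 to 0.10). PSPH, the phosphatase of the last step, had 42.7, 44.4 and 42.8 CPM in KO and 49.2, 48.4 and 45.1 CPM in control; all KO libraries were below all controls, but neither fit called it (edgeR adjusted p = 0.242; with the replicate block, 0.0622). Its pseudogene PSPHP1 had between 55 and 116 counts in KO and between 109 and 199 in control, so the division of reads between the pair is uncertain. The mitochondrial one-carbon enzymes SHMT2, which splits serine, and MTHFD2 had log2 fold changes of -0.06 and 0.12, and MTHFD2 rose with the replicate block only (edgeR adjusted p = 0.29; with the replicate block, 0.0428).

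ASNS, asparagine synthetase and a textbook target of ATF4, was listed at very few reads. It had 22, 25 and 21 counts in KO and 34, 40 and 53 counts in control. That is 1.18, 1.30 and 1.16 CPM in KO and 1.61, 2.15 and 2.25 CPM in control, the lowest level of the 34 genes per kilobase of exon (0.272 in KO and 0.450 in control, in CPM per kilobase). In the GENCODE 29 annotation, 1985 of its 4455 exonic bases (44.6%) are also exons of ENSG00000284707, a transcript on the same strand, for which the table lists 32 to 52 counts in KO and 36 to 51 counts in control. Reads in such an overlap may be dropped or given to either gene, so the count for ASNS is uncertain; a loss of reads there was not tested. The log2 fold change of what was counted was -0.72 (SE 0.24, edgeR adjusted p = 0.0964; with the replicate block, 0.0377).

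Of the 3 amino acid transporter genes, SLC7A5 rose and the others did not pass the group comparison. SLC7A5 (LAT1), which carries leucine and other large neutral amino acids into the cell (ENSG00000103257, chromosome 16, 87830023 to 87869488, minus strand), had 915, 879 and 874 CPM in KO and 727, 715 and 708 CPM in control. The gap between the groups was larger than the spread within either. Its pseudogene SLC7A5P2 had at most 20 counts in any library. It was 1.24-fold higher (log2 fold change 0.31 with SE 0.06; edgeR adjusted p = 0.0122), the smallest adjusted p of the 34 genes. With 1 library left out it passed without KO replicate 3 (edgeR adjusted p = 0.00801) or control replicate 3 (0.0259), and not without KO replicate 1 (0.0635), KO replicate 2 (0.0510), control replicate 1 (0.0624) or control replicate 2 (0.0766). DESeq2 gave an adjusted p of 7.55e-06, and edgeR with the replicate block 2.21e-11.

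SLC3A2 (CD98 heavy chain, or 4F2hc), the partner that brings SLC7A5 and SLC7A11 to the cell surface, had 334, 324 and 353 CPM in KO and 284, 285 and 301 CPM in control. The groups did not overlap. Its log2 fold change was 0.22 (SE 0.06), with an edgeR adjusted p of 0.0620 in the group comparison and 5.38e-07 with the replicate block. DESeq2 called it (DESeq2 adjusted p = 0.0209), and it passed without both replicate-3 libraries (edgeR adjusted p = 3.59e-04). SLC7A11, the cystine-glutamate exchanger, had 142, 159 and 166 CPM in KO and 127, 142 and 161 CPM in control; the groups overlapped, and within each the value was lowest in replicate 1 and highest in replicate 3. It rose only with the replicate block (edgeR adjusted p = 0.496; with the replicate block, 0.0123).

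Over the 18 genes of this branch, 2 rose and 2 fell in the group comparison, and 8 rose and 5 fell with the replicate block, beside the same shares of all genes (3.28% and 6.42% in the group comparison, 17.2% and 16.7% with the block). Their median log2 fold change was 0.01. Their summed CPM was between 2984 and 3075 in KO and between 2808 and 2846 in control. Without SLC7A5 the sums were between 2105 and 2201 in KO and between 2093 and 2138 in control, so the groups overlapped.

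The C/EBP-ATF element, TGATGNAA on either strand, through which ATF4 dimers are known to act, was found in the windows of 4 of 15 ATF4-branch genes (26.7%), of HERPUD1 among the ER genes, and of 4.46% of all genes. Of these 5 genes, CHAC1 and HERPUD1 fell, and ASNS, CEBPG and SLC3A2 did not pass the group comparison. The 4 sites of the branch are shown with up to 10 bases on each side, on the strand that reads TGATG, with the fixed letters in capitals; they lie at chr15:40953252-40953279 (CHAC1, minus strand), chr7:97872459-97872486 (ASNS, minus strand), chr19:33374061-33374088 (CEBPG, plus strand) and chr11:62881726-62881748 (SLC3A2, minus strand) of GRCh38.p14.
CHAC1: ctggcaggagTGATGcAAcggcagggga
ASNS: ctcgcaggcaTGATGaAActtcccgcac
CEBPG: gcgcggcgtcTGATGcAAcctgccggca
SLC3A2: ggagcTGATGtAAggagtcctgc
Within the window that holds it, the site of SLC3A2 lies after the annotated start, and the other sites lie before theirs. CEBPG has another window, at chr19:33373459-33373758 (plus strand), and its site lies after the annotated start of that one.

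Per kilobase of exon, which allows levels to be set between genes, CALR was the highest of the 34 in both groups (598 in KO and 559 in control, in CPM per kilobase), followed by HSPA5, with CANX and HSP90B1 next. SLC7A5 and ATF4 followed, and SLC7A5 was above ATF4 in KO (187 and 156) and below it in control (151 and 169). CRELD2, DNAJB9 and ASNS were the lowest. The exon lengths include exons of rare transcripts, which lowers the value of genes with many of them.

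Within the groups, the spread of several members was set by replicate 3. CEBPB was the extreme case, with replicate 3 below the mean of replicates 1 and 2 by a log2 value of -0.74 in KO and -0.68 in control. XBP1 (-0.30 in KO and -0.31 in control) and CRELD2 (-0.21 in KO and -0.38 in control) shared that direction. DNAJB9 (0.30 in KO and 0.32 in control), MANF (0.21 in KO and 0.30 in control), PDIA3 (0.23 in KO and 0.19 in control) and PPP1R15A (0.33 in KO and 0.19 in control) were higher in replicate 3 of both groups. In all, replicate 3 deviated in the same direction in KO and control for 31 of the 34 genes, 18 upward and 13 downward, against 73.3% of all genes tested. In both groups this deviation was larger than the difference between KO and control for CEBPB, XBP1, MANF and several other genes. Among those others were DNAJB9, PDIA3, PDIA4, PDIA6, PPP1R15A, SLC7A11 and PSAT1. Nothing in the labels says what replicate 3 shared, and its source was not tested.

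**Figure D4:**
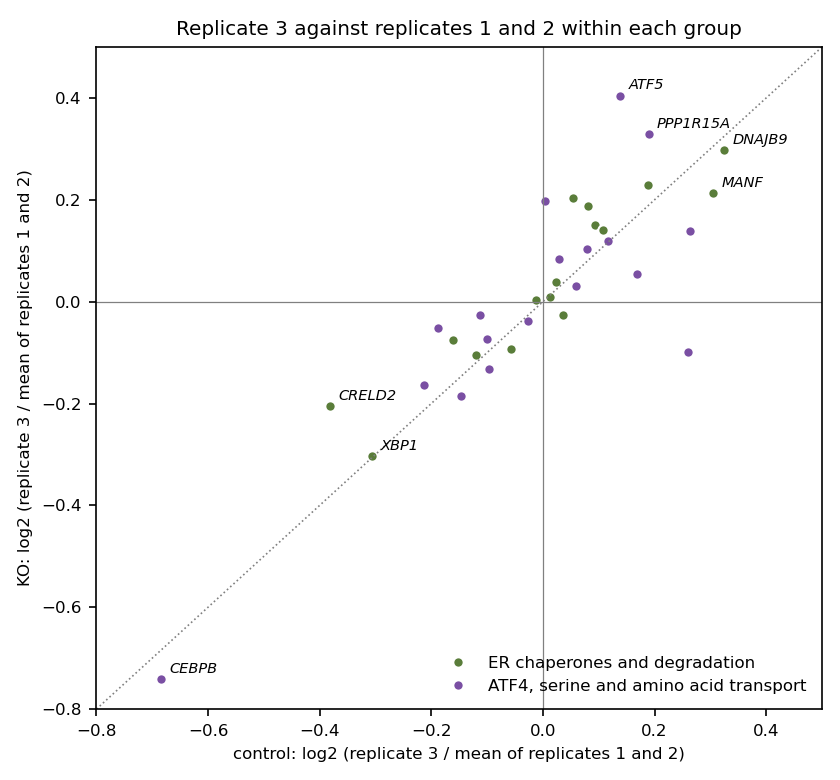
Each point is a gene: the horizontal axis gives the log2 ratio of control replicate 3 to the mean of control replicates 1 and 2, the vertical axis the same for KO, and the dotted line marks equal values. Most points lie near the line, CEBPB at about -0.7 on both axes, DNAJB9 and MANF at the upper right, with ASNS among the 3 genes whose signs differ.

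Of each related list outside the 34, between 0 and 4 genes passed the group comparison (0% to 14.3%, against 9.7% of all genes tested). In that comparison 3.28% of all genes tested rose and 6.42% fell. More genes of these lists passed with the replicate block, in which 17.2% of all genes rose and 16.7% fell. Of 22 sensors and regulators of the response, 2 rose and 1 fell: EIF2B3, a subunit of the exchange factor that recharges eIF2 (58.2 CPM in KO and 45.6 CPM in control, log2 fold change 0.35 with SE 0.07; edgeR adjusted p = 0.0128), and CREB3, an ER-anchored transcription factor (0.23, SE 0.06), rose, and IMPACT, an inhibitor of GCN2 (-0.28, SE 0.07), fell. With the block 8 of these 22 rose and 1 fell. Of 22 further degradation genes 0 passed the edgeR group comparison, against 3 higher and 2 lower with the replicate block. At an edgeR p below 0.05 without adjustment 1 was higher and 2 were lower. Of 23 further folding and oxidation genes, 0 rose and ERO1A fell in the group comparison, against 8 higher and 4 lower with the block. ERO1A, the oxidase that recharges protein disulphide isomerases and a known hypoxia-induced gene, had 228, 239.9 and 239.6 CPM in KO and 311, 303 and 335 CPM in control (log2 fold change -0.42, SE 0.06, edgeR adjusted p = 0.00417).

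Of 25 genes of protein entry into the ER and N-glycosylation, SRPRB, a subunit of the signal recognition particle receptor, rose (54.5 CPM in KO and 38.2 CPM in control, log2 fold change 0.51, SE 0.10) and SEC61G, a small subunit of the translocation channel, fell (-0.29, SE 0.06). With the replicate block 13 of the 25 rose and 2 fell (52% and 8%), and the median was 0.10, with 21 of the 25 log2 fold changes above zero. Of 28 further genes linked to ATF4, 0 rose and 4 fell: VLDLR, a lipoprotein receptor (29.8 CPM in KO and 44.4 CPM in control, log2 fold change -0.58, SE 0.07, edgeR adjusted p = 0.00136), CTH, which makes cysteine from cystathionine (-0.36, SE 0.09), KLHL24, a substrate adaptor of ubiquitin ligases (-0.53, SE 0.14), and GPT2, the mitochondrial alanine transaminase (-0.35, SE 0.09). With the block 5 of the 28 rose and 8 fell. Of 19 further serine and folate genes, 0 rose and 2 fell, among them SFXN3, a mitochondrial serine carrier (-0.35, SE 0.08), against 4 higher and 3 lower with the block. Of 20 cytosolic aminoacyl-tRNA synthetases, which charge tRNAs and many of which ATF4 raises, 1 rose and 1 fell, and the gene that rose was FARSA, a subunit of the phenylalanine enzyme (280.4 CPM in KO and 232 CPM in control, log2 fold change 0.27, SE 0.06), and 8 rose and 2 fell with the block. These lists were written from general knowledge, but with earlier results of these data known, and were not tested as sets.

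**Figure D5:**
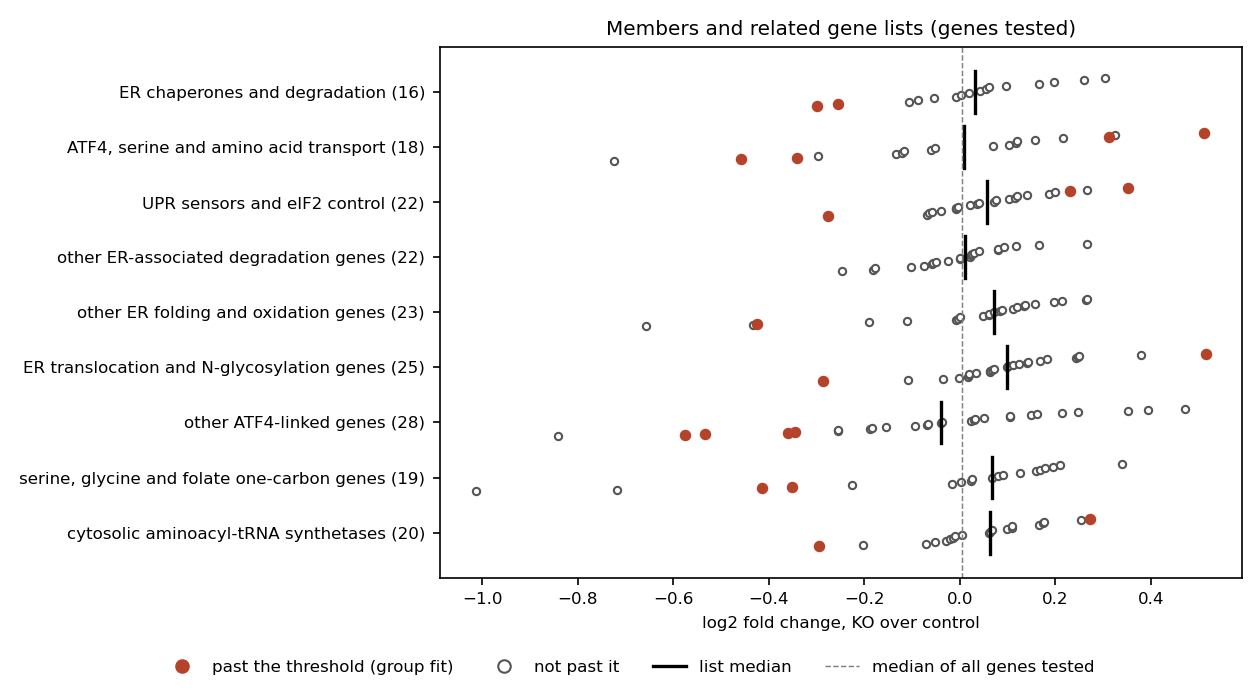
Each circle is a gene placed by its edgeR log2 fold change, KO over control, with filled red circles past the threshold in the group fit, a black bar at each list's median and a dashed line at the median of all genes tested. List medians lie between -0.04 and 0.10, and filled circles stand on both sides of zero in 4 of the 9 lists.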

How the data were processed

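RNA was isolated from cells released from collagen with collagenase, and libraries were made with a stranded poly(A) kit, per the labels' protocols. The deposited table holds raw counts per gene for the 6 libraries. The submitters' processing notes name FastQC 0.11.9, STAR 2.7.9a, featureCounts, R 4.1.1 and hg38; for the annotation and strand setting, the sources used here state nothing. The 34 genes and all gene lists were chosen with earlier results of these data known, so their counts are described and no list was tested as a set. Genes named are all 34 members and, in the other lists, those past the threshold, except a few that are not reported here.

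Counts were filtered with filterByExpr, scaled by TMM and fitted with edgeR 4.0.16 (robust quasi-likelihood test, R 4.3.3), with group as the term, over 14704 genes, and p-values were adjusted by Benjamini-Hochberg at 0.05. CPM use the TMM library sizes, except the marker sums, which use library totals. A count of 3 corresponds to between 0.129 and 0.166 CPM. The fit was tested on data simulated with the replicate effects and spread of the block fit. The group fit called 0 of 14297 unchanged genes, 1 of 47 genes changed 1.25-fold and 22 of 49 changed 1.5-fold. With the replicate block these numbers were 19, 28 and 35. The simulated data were built with the replicate effects that the block models. The higher numbers with the block therefore cannot show that a block suits these libraries. Deviations from the group mean correlated at 0.546, 0.45 and 0.828 between same-numbered libraries over 10032 genes. These were above the minimum of 0.1, so a block for the numbers was fitted. This pairing comes from the data and not from the design. Replicates 1 and 2 correlated more highly across numbers (0.592 and 0.584) than within them. Deviations are centred over 3 libraries, so a replicate 3 that stands apart in both groups can alone raise these values above 0.1. The rule therefore cannot show that the numbers pair the libraries. Alternatives were RLE and upper-quartile factors, DESeq2 1.42.0, other filters, the replicate block, and leaving out libraries. Positions and exon overlaps are from GENCODE 29 on GRCh38 and promoter sequences from RefSeq on GRCh38.p14.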

Additional observations from a re-analysis of the deposited data

How the results depend on the processing

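Small differences set the limit here: most members differed by less than 1.5-fold, and the calls rest on 3 libraries a group. In the ER branch the numbers of genes that rose and fell were 0 and 2, and in the ATF4 branch 2 and 2, against 483 and 944 of all genes. RLE factors gave 1 and 2 (ER), 2 and 2 (ATF4), and 526 and 918 (all). Upper-quartile factors gave 0 and 2, 2 and 2, and 447 and 1027. DESeq2 gave 1 and 2, 3 and 2, and 593 and 966. Without a filter on low counts the numbers were 0 and 2, 3 and 3, and 719 and 1307, and with at least 5 CPM in 3 libraries 0 and 2, 2 and 2, and 439 and 949. With the replicate block they were 5 and 3, 8 and 5, and 2522 and 2461; 15 members gained a call and none lost one, so the block changed no other call. Without replicate 3 of both groups they were 2 and 3, 5 and 4, and 1731 and 2023. Leaving out 1 library gave 0 to 0 ER genes higher and 0 to 1 lower, 0 to 2 ATF4-branch genes higher and 0 to 1 lower, and 136 to 777 and 436 to 964 of all genes. The cause of these changes was not tested. Changes of sign affected only genes that did not pass: MANF had log2 fold changes of -0.014 with upper-quartile factors, -0.00192 without a filter and -0.016 with at least 5 CPM. With 1 library left out the log2 fold change ranged over -0.0535 to 0.11 for MANF, -0.0364 to 0.17 for DNAJB9, -0.20 to 0.00754 for XBP1, -0.0423 to 0.0856 for PDIA3, -0.0519 to 0.0456 for PDIA6, -0.0838 to 0.0112 for PSAT1 and -0.13 to 0.30 for CEBPB.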
